A study of Mus musculus with 4 samples.

Results

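The cytosolic ribosomal protein genes were examined in sorted basal cells of the embryonic mouse epidermis (E16.5), in which the transcription factor gene Srf was deleted or kept. Members were the genes whose platform symbol begins with Rpl or Rps followed by a digit, p or a, with the Rps6k kinases left out. Of 18193 genes with a probe set of their own on the array, 51 met this rule: 22 proteins of the large subunit, 21 of the small subunit, 6 paralogs, the pseudogene Rps15a-ps6 and Rps19bp1, which encodes a protein that binds RPS19. A further 110 probe sets were annotated with a ribosomal protein gene together with other loci, mostly pseudogenes or predicted genes, and were described as a group only, apart from the probe set shared by Rpl39. Each gene was represented by its probe set of highest mean signal, and 48 of the 51 genes (11055 of all genes) lay above the filter on low signal. Rps16, Rps15a-ps6 and the muscle paralog Rpl3l lay below it and were not tested. Of the 77 core ribosomal proteins looked for, 43 had a probe set of their own, 27 only shared probe sets, and 7 were not found. The counts and medians of members thus cover only part of the core proteins.

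The study compared sorted cells of 2 genotypes with 2 arrays each. The cKO embryos were Srf fl/fl, and the het embryos were Srf fl/+, called wild type in the submitters' design text; both carried K14-Cre and the ROSA26 YFP reporter, homozygous as YFP fl/fl. The K14 promoter drives Cre in basal keratinocytes, and cells were sorted on α6 integrin and YFP. The strain label of the het arrays reads only Rosa26, so their genotype rests on the title and on the design text. Each genotype has 1 array titled with either of 2 numbers: A stands for het_1210 and Ko_1210, B for het_1261 and KO_1261. No label says what the numbers mark, or whether an array holds 1 embryo or a pool, so the p-values measure a spread between arrays that may be technical. Differences are cKO minus het of log2(signal + 1), and a bracket with 2 differences gives the difference within A and then within B, with 1 array per genotype in each.

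Ribosomal proteins form the protein part of the large and the small ribosomal subunit, and growing cells make them in near equal amounts. Their mRNAs are among the most abundant in a cell and typically begin with a run of pyrimidines, the 5′ terminal oligopyrimidine tract, through which mTOR and LARP1 control translation. A few mammalian ribosomal proteins have a paralog of tissue-restricted expression. RPL39, a short basic protein, lines the tunnel through which the nascent chain leaves the large subunit, and RPL39L takes its place in male germ cells.

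The start regions below are shown for Rpl39 and Rpl39l, whose probe sets of 1 gene were lower in cKO together. A brighter probe set that Rpl39 shares with another locus differed by -0.14 (adjusted p = 0.79 in limma with the block). Those of Rpl7l1 and Rpl41, whose probe sets went opposite ways, are shown too. Rpl27a and Rpl14 were added as the other core members farthest below and above 0. Each region runs from 50 bases before the RefSeq start to 30 bases from it, 5′ to 3′ on the strand of the gene (RefSeq, GRCm38.p6). Capitals mark the letters CCGGAAG, or their reverse complement CTTCCGG, which hold the core of ETS family sites, and any stretch of at least 6 pyrimidines that begins with C inside a window from 10 bases before the start to the first 10 bases from it. Only letters inside that window count, so a longer run is cut at its edge, as at Rpl27a, and the run of Rpl39 that lies partly past it is not marked. The locations are chrX:37085193-37085272 (minus strand) for Rpl39, chr16:10170178-10170257 (plus) for Rpl39l, chr17:46782627-46782706 (minus) for Rpl7l1, chr10:128549139-128549218 (minus) for Rpl41, chr7:109519145-109519224 (plus) for Rpl27a and chr9:120571467-120571546 (plus) for Rpl14.
Rpl39: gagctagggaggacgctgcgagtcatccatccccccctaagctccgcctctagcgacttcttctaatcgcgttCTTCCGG
Rpl39l: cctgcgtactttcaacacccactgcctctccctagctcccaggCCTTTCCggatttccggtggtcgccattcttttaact
Rpl7l1: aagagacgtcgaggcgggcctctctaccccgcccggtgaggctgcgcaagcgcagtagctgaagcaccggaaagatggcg
Rpl41: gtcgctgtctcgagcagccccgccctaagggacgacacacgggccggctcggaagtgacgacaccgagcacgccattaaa
Rpl27a: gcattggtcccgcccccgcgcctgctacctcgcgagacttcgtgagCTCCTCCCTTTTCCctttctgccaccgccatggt
Rpl14: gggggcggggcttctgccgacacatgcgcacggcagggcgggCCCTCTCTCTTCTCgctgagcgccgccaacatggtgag

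Of the 51 members, 44 had a start region in the RefSeq table, with 52 regions of 300 bases among them. A gene was counted if any of its regions matched, and the sequences above need not show every region of a gene. The pyrimidine run was found in 22 of these 44 genes (50%), against 4700 of all 27025 genes (17.4%). CCGGAAG, on either strand and anywhere in the 300 bases, was found in 21 of the 44 (47.7%) and in 2683 of all genes (9.93%); in its CTTCCGG form it can overlap the pyrimidine run. The CArG box, the sequence SRF binds, matched in 1 of the 44, Rpl10a (2.27%), and in 488 of all genes (1.81%). Neither Rpl39 nor Rpl39l had the letters of a CArG box in its window, and both had CCGGAAG in 1 orientation; that of Rpl39l lies outside the stretch printed above. A match of letters shows no binding, and a window without them shows nothing about SRF.

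Rpl39 and Rpl39l stood apart from the rest of the group, at 2.33-fold and 2.90-fold lower signals in cKO. The Rpl39 probe set (1423032_at) had a signal of 643 on the het A array, 528 on het B, 281 on cKO A and 222 on cKO B. The Rpl39l probe set (1423327_at) had a signal of 268 on het A, 262 on het B, 98.0 on cKO A and 83.9 on cKO B. Both cKO arrays lay below both het arrays for both genes, and these were the 2 members of 48 with such a separation in this direction (4.17%, where 10.9% of all tested genes had it). The same 2 were the members more than 1.5-fold lower within both A and B (1.65% of all tested genes were), and 0 were as much higher (0.344% of all). No member had both cKO arrays above both het arrays (0 of 48, against 8.18% of all tested genes).

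The 2 het arrays averaged 585 ± 81.0 for Rpl39 and the 2 cKO arrays 252 ± 41.6 (SD, n = 2), a difference of -1.22 ± 0.22 (SE of the limma fit with the A or B title number as a block; -1.19 and -1.25). For Rpl39l the mean signals were 265 ± 4.82 and 91.0 ± 9.97 (SD, n = 2), and the difference was -1.54 ± 0.32 (-1.44 and -1.63). In limma without a block 0 of the 48 members passed, as did 0% of all tested genes, and with the unadjusted p the 2 members under 0.05 were Rpl39 (0.0107) and Rpl39l (0.00785), where 66 genes or 0.597% had such a p. With the A or B title number as a block both fell, at adjusted p = 0.00213 for Rpl39 and 0.0074 for Rpl39l. They were 2 of the 48 members (4.17%) and 2 of the 68 genes that fell, 0.615% of all tested; 0 members rose, against 0.253% of all. This fit has 1 residual degree of freedom and draws on a variance shared across probe sets: the adjusted p was 0.736 for both without the variance trend, and 0.00405 and 0.0135 with a robust prior.

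**Figure D1:**
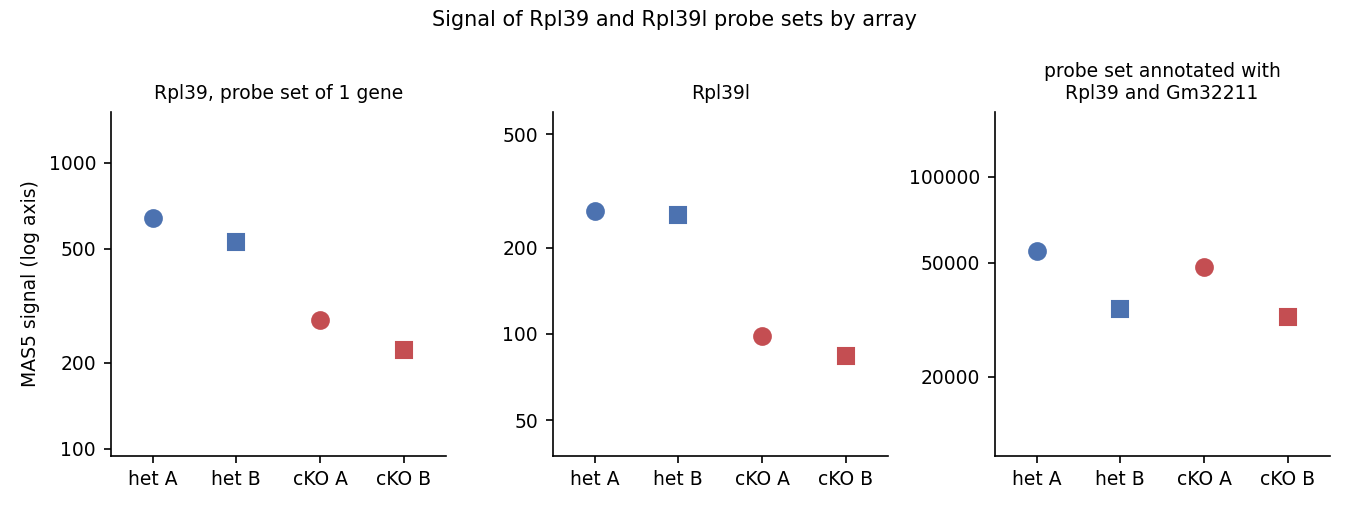
MAS5 signal (log axis, a different range in each panel) on the 4 arrays for the Rpl39 probe set of 1 gene, the Rpl39l probe set and the probe set annotated with both Rpl39 and Gm32211. Points are single arrays, het in blue and cKO in red, with circles for A and squares for B. In the first 2 panels both cKO arrays lie below both het arrays; in the right panel the arrays separate by A and B, not by genotype.

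A second probe set for Rpl39 did not show this difference. It is annotated with Rpl39 and the locus Gm32211 (1450840_a_at), and its signal was 55209 on het A, 34472 on het B, 48333 on cKO A and 32407 on cKO B. The genotypes overlapped, and both B arrays were lower than both A arrays. The difference was -0.14 ± 0.12 (-0.19 and -0.09), with adjusted p = 0.79 in limma with the block. Within each array, the log2 ratio of the first to the second probe set was -6.42 and -6.03 in het (A, B) and -7.42 and -7.18 in cKO. The ratio thus differed by -0.998 within A and by -1.16 within B, and the cause of this was not tested. The exact permutation p was 0.333 (two-sided), the smallest that 2 against 2 arrays can give. None of the 15 such ratios computed could therefore pass. The others compared probe sets of 1 gene, whereas this ratio includes the probe set shared with Gm32211. Of Rpl39l the array held no other probe set, and its transcript resembles that of Rpl39. Probe sequences were not analysed here, so how far each probe set reads the other transcript was not tested.

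Apart from Rpl39 and Rpl39l, the tested members differed little between the genotypes. The other 46 ranged from -0.34 for Rpl27a to 0.17 for Rpl14, and 0 of them passed with the block. Of all 48, 46 had a negative difference (95.8%, against 53.8% of all tested genes). The median was -0.11 (-0.20 and -0.02), where the median of all tested genes was -0.02 (-0.03 and -0.02). Within both A and B 31 of 48 were lower (64.6%), against 31.6% of all tested genes, and 1, Rpl14, was higher, against 24.4%. This direction depended on the scaling of the arrays. With quantile normalization 29 of 48 were lower in cKO (60.4%, against 53% of all tested genes). Within both A and B 16 were lower (33.3%, against 30.3%). With median centring 17 of 48 were lower (35.4%, against 33.3% of all tested genes), and 4 within both (8.33%, against 16.2%). The median of all tested genes moved up to 0.10 with this centring.

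**Figure D2:**
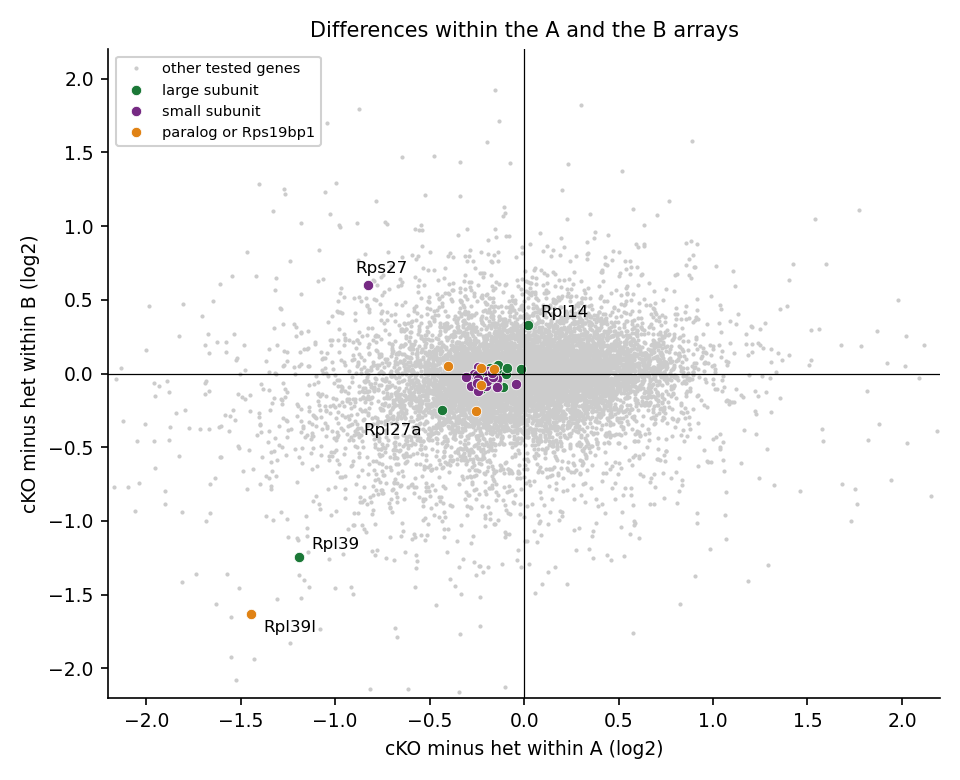
Difference cKO minus het (log2) within A (x axis) and within B (y axis) for each tested gene, with large subunit proteins in green, small subunit proteins in purple, paralogs and Rps19bp1 in orange and other genes in grey. Axes end at 2.2, which leaves 52 genes outside. Rpl39 and Rpl39l lie apart at the lower left, and most other members lie close together between -0.2 and 0 on average.

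By subunit, the 22 tested large subunit proteins had a median of -0.10 (-0.17 and -0.01), with 20 lower. The 20 small subunit proteins had a median of -0.12 (-0.21 and -0.03), with 20 lower. These counts hold for the values as deposited, where 53.8% of all tested genes were lower. With the block Rpl39, at its probe set of 1 gene, was the 1 large subunit protein that passed, and 0 small subunit proteins did. Of all tested genes 0.615% fell and 0.253% rose with the block. The difference between the subunits was not tested. RPL27A, a protein of the large subunit, had the next largest difference at -0.34 ± 0.17 (-0.43 and -0.25; adjusted p = 0.57 with the block). Its signal was 1936 on het A and 936 on het B, and 1433 and 789 on cKO A and cKO B, so A and B differed by more than the genotypes. Rpl14, also of the large subunit, was the highest at 0.17 ± 0.15 (0.02 and 0.33), averaging 2894 ± 527 over the het arrays and 3239 ± 106 over the cKO arrays (SD, n = 2). RPL8, which lies near the peptidyl transferase centre, differed by -0.17 ± 0.12 (-0.23 and -0.11).

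Of the small subunit proteins with the largest differences of like sign, Rps15 differed by -0.18 ± 0.12 (-0.28 and -0.08) and Rps28 by -0.18 ± 0.12 (-0.24 and -0.12). Rps4x, the X-linked member of the S4 family, differed by -0.16 ± 0.12 (-0.31 and -0.02), and Rps9 by -0.16 ± 0.12 (-0.25 and -0.06). None of these passed. Rps27 went opposite ways within A and B. Its signal was 981 and 595 in het (A, B) and 553 and 902 in cKO, a difference of -0.11 (-0.83 and 0.60). The SE of this difference was 0.23 with the block, 0.37 with the block and a robust prior, and 0.40 without a block.

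The 5 members of highest mean signal differed by nearly the same amount at the probe sets that represent them. Other tested probe sets of these genes ranged from -0.29 (Rpl13a) to 0.0007 (Rps20). Rps29 had a signal of 75317 on het A, 47549 on het B, 65749 on cKO A and 45890 on cKO B, a difference of -0.12 ± 0.11 (-0.20 and -0.05). Rps20 differed by -0.14 ± 0.12 (-0.20 and -0.08), and Rps7 by -0.14 ± 0.12 (-0.24 and -0.03). Rpl13a, which also takes part in silencing of inflammatory mRNAs, differed by -0.11 ± 0.12 (-0.19 and -0.03), and Rps3a1 by -0.09 ± 0.12 (-0.17 and -0.02). At each of these 5 representing probe sets the A arrays were higher than the B arrays in both genotypes, and the genotypes overlapped. With quantile normalization the sign turned for Rps29 (0.015) and Rps3a1 (0.046), and with median centring for Rps3a1 (0.027) and Rpl13a (0.012).

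Of the 5 tested paralogs 0 passed without a block, as did 0% of all tested genes. With the block 1, Rpl39l, fell, where 0.615% of all tested genes fell. This call was lost without the variance trend (adjusted p = 0.736 in limma). Rpl22l1, a paralog of the RNA-binding protein RPL22, differed by -0.06 ± 0.12 (-0.16 and 0.03), and turned to 0.058 with median centring and 0.049 with quantile normalization. Rps27l, a p53-responsive paralog of RPS27, differed by -0.15 ± 0.13 (-0.23 and -0.07), averaging 20878 ± 7044 over the het arrays and 18604 ± 4965 over the cKO arrays (SD, n = 2). Rps4l, related to Rps4x, differed by -0.18 ± 0.16 (-0.40 and 0.05). Rpl7l1, a relative of RPL7 with a part in assembly of the large subunit, differed by -0.25 ± 0.15 (-0.26 and -0.25) at its probe set of highest signal. Rpl3l, the paralog of striated muscle, had signals from 1.80 to 4.84 on the 4 arrays, below the filter.

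For 21 members more than 1 probe set was tested, and for 5 of them (Rps24, Rps20, Rpl41, Rpl22 and Rpl7l1) the tested probe sets differed in sign between the genotypes. Over all 95 tested probe sets of members, 2 rose and 2 fell with the block (0.364% and 0.497% of all tested probe sets rose and fell); without a block 0 of 95 passed. The 2 that fell were those of Rpl39 and Rpl39l. The 2 that rose were of Rpl7l1 and Rpl41, were not the probe sets that represent these genes, and were chosen for naming after their values were seen. At Rpl7l1 the low-signal probe set (1439780_at) had a signal of 319 on het A, 165 on het B, 698 on cKO A and 357 on cKO B. It was 2.17-fold higher in cKO, a difference of 1.12 ± 0.23 (1.13 and 1.11), with adjusted p = 0.00676 in limma with the block. Both cKO arrays lay above both het arrays, as they did for 7.91% of all tested probe sets. Another Rpl7l1 probe set differed by -0.28 ± 0.17 (-0.33 and -0.23), in the direction of the representing probe set. The log2 ratio of the low-signal to the representing probe set was -3.75 and -3.81 in het and -2.37 and -2.44 in cKO, again with an exact permutation p of 0.333 (two-sided).

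RPL41 is a very short, highly basic protein of the large subunit. Its low-signal probe set (1454639_x_at) had a signal of 336 on het A, 887 on het B, 885 on cKO A and 1214 on cKO B, a difference of 0.92 ± 0.21 (1.39 and 0.45; adjusted p = 0.0142 with the block). The genotypes overlapped, since het B and cKO A were close, and without het A the difference was 0.22. A further Rpl41 probe set behaved alike at 0.70 ± 0.20 (1.04 and 0.37) and did not pass (adjusted p = 0.0945). The probe set that represents Rpl41 had a signal of 58173 on het A, 35254 on het B, 50169 on cKO A and 34548 on cKO B, a difference of -0.12 ± 0.12. Both adjusted p-values of the low-signal probe sets became 0.736 without the variance trend, and were 0.048 for Rpl41 and 0.0129 for Rpl7l1 with a robust prior.

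**Figure D3:**
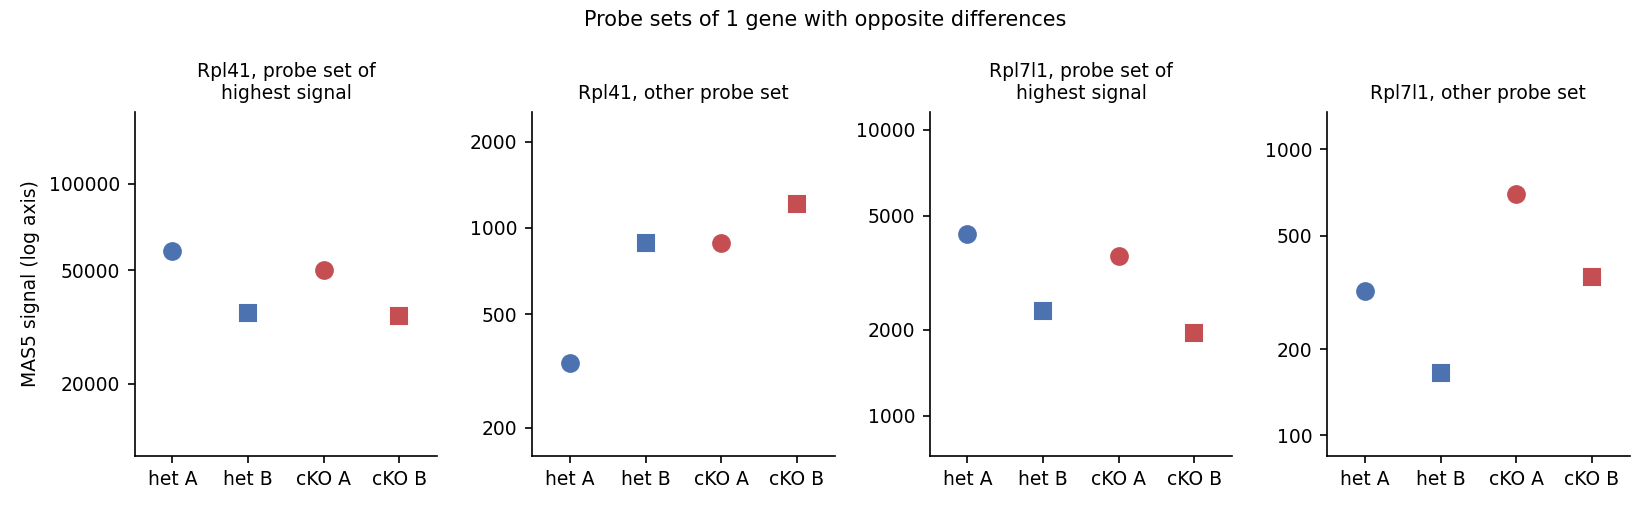
MAS5 signal (log axis, a different range in each panel) on the 4 arrays for the representing probe set and the low-signal probe set of Rpl41 (left pair) and of Rpl7l1 (right pair). Points are single arrays, het in blue and cKO in red, with circles for A and squares for B. At Rpl7l1 the low-signal probe set is higher in cKO within both A and B, while the representing probe set is lower.

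The 4 member probe sets that passed with the block, where 0 passed without it, were of low signal. They were among the 13 tested member probe sets with a mean log2(signal + 1) of at most 10, a signal of 1023. All 69 member probe sets above 14 on this scale, a signal of 16383, were lower in cKO by a like amount, from -0.29 to -0.03 (median -0.11; -0.19 and -0.02), and 0 passed with the block. The 79 probe sets above 14 that ribosomal protein genes share with other loci had a median of -0.09 (-0.18 and -0.01), and 79 of 79 were lower. Of the 26 tested shared probe sets at most 14, 2 fell with the block (7.69%) and 0 rose. Among all tested probe sets 0.497% fell and 0.364% rose with it. The 256 other probe sets above 14 had a median of -0.08 (-0.14 and -0.02), and 198 were lower. The medians of these sets of high signal lay close together, while a larger share of member probe sets was lower (69 of 69, against 198 of 256 others). The difference between these sets was not tested.

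Members of high signal differed more between A and B than between the genotypes, unlike Rpl39 (-0.31 for B minus A) and Rpl39l (-0.13). The 36 members above 14 were all lower in B than in A, by 0.48 to 0.66 on the log2 scale (median -0.59). The 142 other tested genes above 14 had a median of -0.44 between B and A, and all tested genes of -0.13. Over 12 poly-A spike-in probe sets, which report RNA added before labelling, the median was -1.39, and over 9 hybridization controls it was -0.82. Between the genotypes the same controls were also lower in cKO, with medians of -0.15 within A and -0.23 within B for the poly-A spike-ins and of -0.24 and -0.19 for the hybridization controls, beside -0.20 and -0.02 for the members. Their part in the members' lower values was not tested. With quantile normalization the median of the 48 members between B and A became -0.021. Among members of lower signal the difference went both ways: Rps6, whose protein is the classical substrate of S6 kinase, read 4061 and 5190 on het A and B and 3939 and 4946 in cKO. An Rps24 probe set (1455195_at) was higher in B by 2.08, at 140 and 629 in het and 209 and 847 in cKO, while the Rps24 probe set of highest signal was lower in B.

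**Figure D4:**
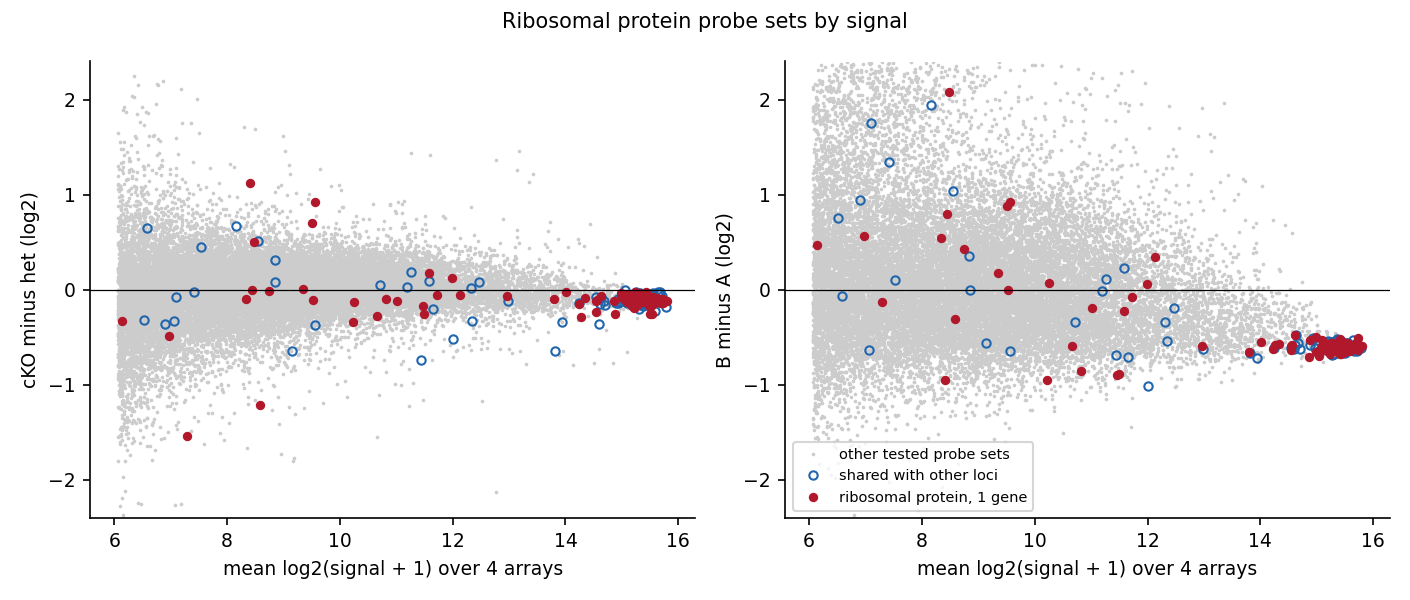
Difference cKO minus het (left) and B minus A (right), both log2, against the mean log2(signal + 1) over the 4 arrays, for tested ribosomal protein probe sets of 1 gene (red), those shared with other loci (blue rings) and all other tested probe sets (grey). Axes end at 2.4, which leaves 638 tested probe sets outside in the right panel. Ribosomal protein probe sets crowd above 14, slightly below 0 at left and near -0.6 at right, and those that differ by more lie at lower signals.

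In 4 lists of related genes, 0 members passed with the block, where 0.253% of all tested genes rose and 0.615% fell; 53.8% of all tested genes had a lower mean in cKO. Of 76 tested mitochondrial ribosomal proteins, which serve translation inside mitochondria, 63 had a lower mean in cKO, 33 of them within both A and B (43.4%, against 31.6% of all tested genes); the median was -0.10 (-0.24 and 0.02). The largest differences were those of Mrpl1 at -0.37 ± 0.22 (-0.34 and -0.40) and Mrps16 at -0.32 ± 0.15 (-0.50 and -0.13). With median centring the median of this list was 0.025. Of 69 tested ribosome biogenesis factors, such as nucleolar proteins and RNA polymerase I subunits, 45 were higher and 24 lower. The median was 0.08 (-0.01 and 0.09). Within both A and B 26 were higher (37.7%, against 24.4% of all tested genes) and 10 lower (14.5%, against 31.6%). Rrp9, a component of the U3 processing complex, differed by 0.49 ± 0.23 (-0.10 and 1.09), and Dcaf13, of the small subunit processome, by -0.40 ± 0.16 (-0.55 and -0.26).

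Of 41 tested translation initiation, elongation and release factors, 23 were lower and 18 higher. Within both A and B 12 were lower (29.3%) and 15 higher (36.6%), against 31.6% and 24.4% of all tested genes. The median was -0.03 (-0.07 and 0.02), which turned to 0.091 with median centring and 0.020 with quantile normalization. Eif4g3, a scaffold of the cap-binding complex, differed by 0.41 ± 0.17 (0.58 and 0.24), and Eif2s3x, a subunit of the factor that brings the initiator tRNA, by 0.27 ± 0.14 (0.19 and 0.35). Of 16 tested growth regulators of the Myc and mTOR pathways, 12 were higher and 4 lower, and the median was 0.11 (0.16 and 0.02). Within both A and B 7 were higher (43.8%) and 3 lower (18.8%), against 24.4% and 31.6% of all tested genes. Mycn, a Myc family transcription factor, differed by -0.41 ± 0.26 (-0.65 and -0.17), and Rictor, of mTOR complex 2, by 0.36 ± 0.20 (0.71 and 0.01). Fau, which encodes the small subunit protein RPS30 under a symbol the rule does not take, differed by -0.12 ± 0.12 (-0.27 and 0.03).

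**Figure D5:**
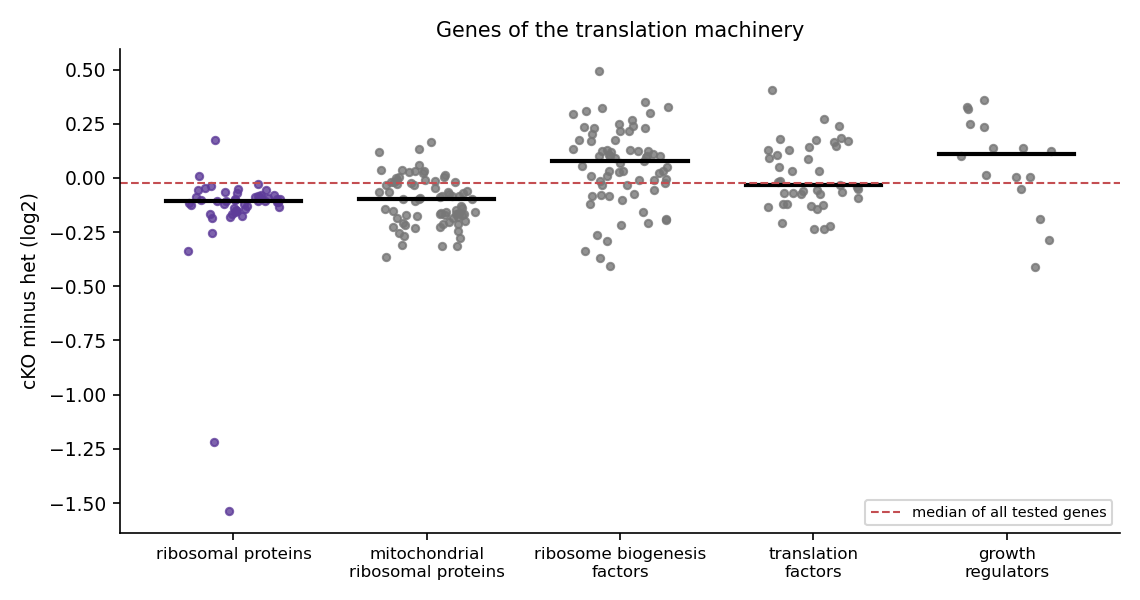
Difference cKO minus het (log2) of each tested gene in 5 lists: ribosomal proteins, mitochondrial ribosomal proteins, ribosome biogenesis factors, translation factors and growth regulators. Points are genes, scattered sideways for visibility, black bars are list medians, and the dashed line is the median of all tested genes, -0.02. The points farthest from 0 are Rpl39l at -1.54 and Rpl39 at -1.22.

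Srf itself read 834 and 1108 on het A and B, and 47.9 and 80.4 on cKO A and B, at its probe set of highest signal; the sources used here do not say whether it lies in the floxed part. All 7 basal epidermal markers were tested and 0 passed with the block, where 0.615% of all tested genes fell. The summed signal of 8 dermal fibroblast markers was 46478 and 39253 in het (A, B) and 34678 and 36063 in cKO, and 3 of them fell with the block while Pdgfra and Dcn were higher (0.75 and 0.06); that of 6 spinous markers was 145511 and 84999 in het and 88879 and 68850 in cKO, and 3 fell. That of 6 immune markers was 662 and 655 in het and 305 and 410 in cKO; 2 of them were tested and 1 fell with the block. The 4 tested markers of melanocytes and the 4 of endothelium were all lower in cKO (medians -0.37 and -0.40), with summed signals over all markers of 1314 and 726 in het against 723 and 707 in cKO, and of 856 and 635 against 511 and 569. Of 3 erythroid markers 0 lay above the filter, and 5 proliferation markers were at 23126 and 27413 in het and 28373 and 28797 in cKO. The part of these marker differences in those of Rpl39 and Rpl39l was not tested, and in bulk RNA fewer cells of a type and less RNA per cell cannot be told apart.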

How the data were processed

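The table the authors deposited gives 1 linear intensity, a MAS5 signal according to the submitters' processing notes, for each probe set on each array; the RNA was labelled with a 3′ kit per the labels' protocols. On all 4 arrays the mean, with 2% trimmed at each end, was 500, so every difference is relative to that mean, and signals near background are noisy on the log2 scale.

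Of 45101 probe sets, 64 controls were left out; 34945 had 1 gene symbol in the platform annotation, 932 several and 9160 none. Symbols were updated through the Entrez identifier (34741 matched). Values were taken as log2(signal + 1), with no further scaling. The 22518 probe sets above the median (a signal of 65.9) went into limma 3.58.1 under R 4.3.3: lmFit, then eBayes with a variance trend. Tests were two-sided, with a threshold of 0.05 on p-values adjusted by Benjamini-Hochberg over all probe sets tested. The main fit has no block; the title number (A or B) as a block was a listed alternative, with 1 residual degree of freedom against 2, and is printed beside it because the spike-in controls separate A from B. Standard errors are those of the fit with the block, which draws on a variance shared across probe sets. For the tested members those without a block were larger, at 0.39 against 0.11 for Rps29 and 0.31 against 0.22 for Rpl39. The code was tested on simulated data. The members, lists and naming rule (Rpl39 and Rpl39l, passing members, the 8 next largest of like sign, the 5 of highest signal, all paralogs) were chosen with earlier results of these data known. With 2 arrays per group, the number of arrays limits the precision. No genome build was used for the array values. Python 3.11.15 and matplotlib 3.10.9 made the figures.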

Additional observations from a re-analysis of the deposited data

How the results depend on the processing

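Without a block 0 genes passed in limma at any scaling; with the replicate block 96 did, and 50 with a robust prior, 52 after median centring, 150 after quantile normalization, all with the block, of which 2 were ribosomal protein genes each time (Rpl39 and Rpl39l). With the block and no variance trend 0 passed. Leaving out 1 array gave 0 to 2 genes and 0 to 0 members. Deviations of same-numbered arrays correlated at 0.755; the labels do not state a pairing, and 2 pairs settle none. Neither Rpl39 nor Rpl39l lay above a filter at the 75th percentile, so neither was tested there; without 1 array they ranged from -1.39 to -1.05 and from -1.65 to -1.43.

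Median centring moved the median of all tested genes up to 0.10 and turned the medians of ribosomal proteins (0.016), mitochondrial ribosomal proteins (0.025) and translation factors (0.091; 0.020 with quantile normalization), with or without the block. It also turned Rps3a1 (0.027), Rpl13a (0.012) and Rpl22l1 (0.058); quantile normalization turned Rps29 (0.015), Rps3a1 (0.046) and Rpl22l1 (0.049). The mean over probe sets turned Rpl7l1 to 0.19.

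Without 1 array the median ran from -0.45 (without het B) to 0.22 (without het A) for ribosomal proteins, from -0.47 to 0.26 for mitochondrial ones, from -0.038 to 0.17 for biogenesis factors, from -0.21 to 0.16 for translation factors and from -0.048 to 0.17 for growth regulators. Single genes also turned: Rpl27a ranged from -0.86 to 0.18, Rpl7l1 from -0.70 to 0.19, Rps15 from -0.52 to 0.16, Rps28 from -0.50 to 0.15, Rpl14 from -0.013 to 0.36, Rpl8 from -0.52 to 0.19, Rps4x from -0.51 to 0.19, Rps9 from -0.51 to 0.20, Rps29 from -0.46 to 0.21, Rps3a1 from -0.39 to 0.20, Rps20 from -0.45 to 0.16, Rpl13a from -0.45 to 0.23, Rps7 from -0.47 to 0.20, Rpl22l1 from -0.35 to 0.23, Rps27l from -0.50 to 0.20, Rps4l from -0.74 to 0.39 and the shared Rpl39 probe set from -0.48 to 0.20. The cause of these changes was not tested. Low signals limit Rpl39 and Rpl39l, and A and B differ at high signals.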
